A study of Mus musculus with 6 samples.

Results

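Cytosolic ribosomal proteins are the protein part of the ribosome that translates nuclear messages. They were followed here in adult mouse hearts with and without Kdm4a (Jmjd2a), a demethylase of histone H3. Genes were taken as members where the array annotation gives the symbol Rpl or Rps with a number and at most 1 further letter, or Rplp0, Rplp1, Rplp2 or Rpsa, and kinases of the Rps6k family and pseudogenes were left out. The rule found 59 genes on 88 probes, of 45281 probes on the array. Of these, 53 had a probe above background on at least 2 of 6 arrays, among 11285 such genes in all. They comprised 28 proteins of the large subunit, 22 of the small subunit and 3 of the P-stalk. The remaining 6, Rpl6, Rpl14, Rpl17, Rpl39l, Rps20 and Rps23, had signals of 96.4 to 126 and entered no comparison. Such a signal says that these probes were not above background, and nothing more about the genes.

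The arrays were 6 Illumina bead arrays, each of 1 colour and 1 sample of total RNA from the heart. A general Jmjd2a knockout heart was paired with its wild type, and in a line with a heart-specific deletion a female and a male knockout heart were each paired with a wild type of the same sex. All hearts were from adults. The labels name no strain, no exact age, no driver of the heart-specific deletion and no sex for the general pair. Each genotype was thus measured by 1 array per pair, and nothing says whether a heart was pooled. The male-specific Eif2s3y, on its brighter probe, gave 1116 and 1380 in the general pair (wild type, then knockout), 1830 and 917 in the males and 97.8 and 104 in the females, and Xist was above background in the female hearts alone. The deletion itself could not be checked, because the brightest of 3 Kdm4a probes read 102 to 123 and was above background on 1 array. Cardiac muscle markers were bright on every array, with 9 of 10 above background and Tnnt2 the exception. Differences are given as log2 of knockout over wild type within a pair, and every intensity is on the authors' linear, between-array normalised scale.

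Each ribosome needs a copy of nearly every ribosomal protein, and cells make these proteins in step. Their messages are short and abundant and begin with a terminal oligopyrimidine (TOP) tract, a C followed by a run of pyrimidines, through which mTORC1 and Larp1 control their translation. In the heart, ribosome content sets the capacity for protein synthesis during growth and hypertrophy. In striated muscle Rpl3l, a paralogue, takes the place of Rpl3 at the centre of the large subunit.

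The promoters of 6 members are printed with the 50 bases before and 30 bases from the annotated start on. In 5 of them a pyrimidine run that starts with C lies near that start. Its first base lies between -4 (Rplp2) and 5 (Rps26), and at the annotated start itself in Rpl38. Whether these runs open the messages was not tested. Rps6, Rps10 and Rps26 are shown for their wide differences in the general or the male pair, Rpl38 and Rplp2 as a large-subunit and a stalk gene, and Rpl3l as the muscle paralogue that did not move with them. Capitals mark the first run of at least 6 pyrimidines that starts with C, looking from 25 bases before the start on. Sequences are from RefSeq for GRCm38.p6, each on the strand of its gene, and Rpl3l holds no such run in the window.
Rps6 (chr4:86857338-86857417, minus strand): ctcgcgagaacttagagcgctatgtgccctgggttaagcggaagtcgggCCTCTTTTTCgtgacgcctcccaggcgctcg
Rps10 (chr17:27635215-27635294, minus strand): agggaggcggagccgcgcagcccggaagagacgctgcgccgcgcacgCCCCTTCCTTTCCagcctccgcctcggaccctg
Rps26 (chr10:128626477-128626556, minus strand): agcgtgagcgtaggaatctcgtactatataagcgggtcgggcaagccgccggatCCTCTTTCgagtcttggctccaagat
Rpl38 (chr11:114668530-114668609, plus strand): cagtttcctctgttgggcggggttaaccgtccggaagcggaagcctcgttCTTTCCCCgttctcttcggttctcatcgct
Rplp2 (chr7:141447601-141447680, plus strand): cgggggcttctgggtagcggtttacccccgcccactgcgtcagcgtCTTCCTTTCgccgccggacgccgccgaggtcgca
Rpl3l (chr17:24727776-24727855, plus strand): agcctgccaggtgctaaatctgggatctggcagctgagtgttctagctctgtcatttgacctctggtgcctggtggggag

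A promoter was found for 44 of the 53 members. A pyrimidine run of at least 6 that starts with C was found from 25 bases before the annotated start to the end of the window, 50 bases long from the start on, in 37 of them (84.1%) on the sense strand, against 50.9% of all 27025 genes in the promoter table. A run of at least 5 began exactly at the start in 8 (18.2%, against 3.01%). Within the whole window of 300 bases and on both strands, CCGGAAG, a core site of ETS factors, was found in 45.5% of the members and 9.93% of all genes. GGGCGG, the core Sp1 site, was found in 63.6% and 38.2%, and the TATA box TATAAA in 11.4% and 15.7%. The E-box CACGTG was found in 11.4% and 8.09%, AAGATGGC, a site of YY1, in 6.82% and 3.19%, and the palindromic site of nuclear respiratory factor in 9.09% and 5.19%. These matches describe the letters of the windows and no binding, and annotated starts can lie some bases from the true start.

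The members moved together from array to array, and the arrays at the ends were both wild types. In the male wild type their median lay 0.40 below the mean of each gene over 6 arrays (log2), and in the general wild type 0.27 above it. On the other 4 arrays, the general knockout, the female wild type and knockout and the male knockout, the medians lay between -0.02 and 0.10. The medians of all genes lay between -0.02 and 0.01 on every array. The male wild type was the lowest of the 6 arrays for 43 of 53 members, against 22.1% of all genes. The general wild type was the highest for 31 members, against 18.6% of all genes.

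**Figure D1:**
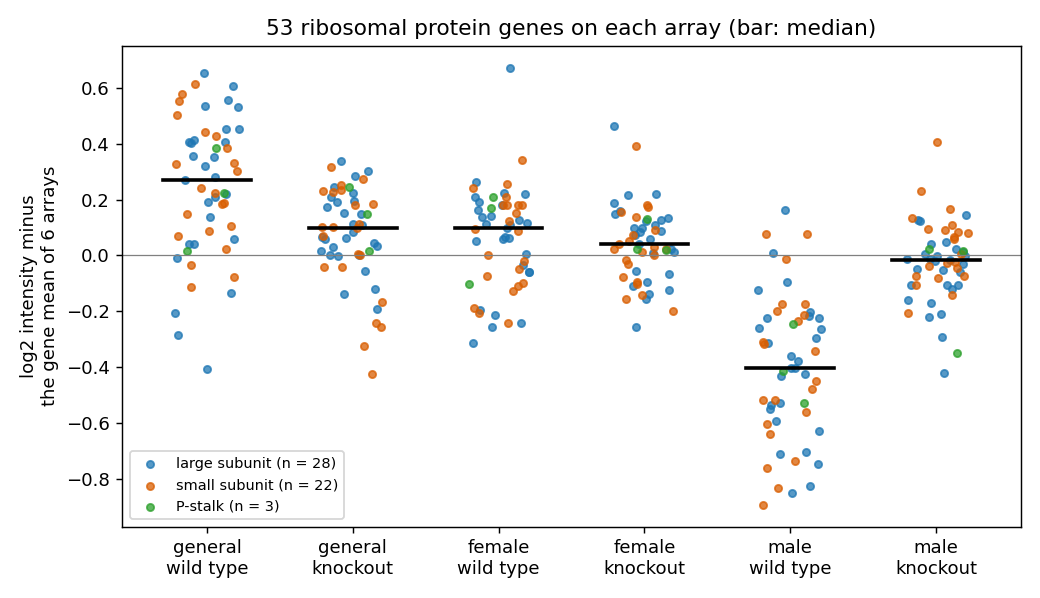
Log2 intensity of each of the 53 ribosomal protein genes minus its mean over the 6 arrays (vertical axis), by array (horizontal axis). Points are genes, coloured by subunit, and bars are medians. The male wild type lies lowest, at a median of -0.40, and the general wild type highest, at 0.27.

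The shift was shared by both subunits. The median in the male wild type was -0.39 for the large and -0.40 for the small subunit, against 0.30 and 0.23 for the general wild type. For the 3 stalk genes these medians were -0.41 and 0.22. Rpl24, whose protein joins the large subunit late in its assembly, read 6169 in the general, 4344 in the female and 2365 in the male wild type, and 4964, 4003 and 4309 in the knockouts. The 3 knockout values thus lay inside the span of the wild types. The same order was seen for Rps16, a small-subunit protein near the decoding site, with 9969, 7251 and 4003 in the wild types and 7285, 6362 and 7329 in the knockouts.

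Wild-type hearts consequently spread more than knockout hearts. The median range over the 3 wild types was 0.68 on the log2 scale and over the 3 knockouts 0.25, against 0.31 and 0.23 for all genes. The wild-type range was the wider one in 49 of 53 members (92.5%), against 65.4% of all genes. With 3 arrays a genotype, 1 male wild type and 1 general wild type set the range. Fewer ribosomal messages per cell, fewer cells rich in them and a technical difference between arrays cannot be told apart in these whole hearts.

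**Figure D2:**
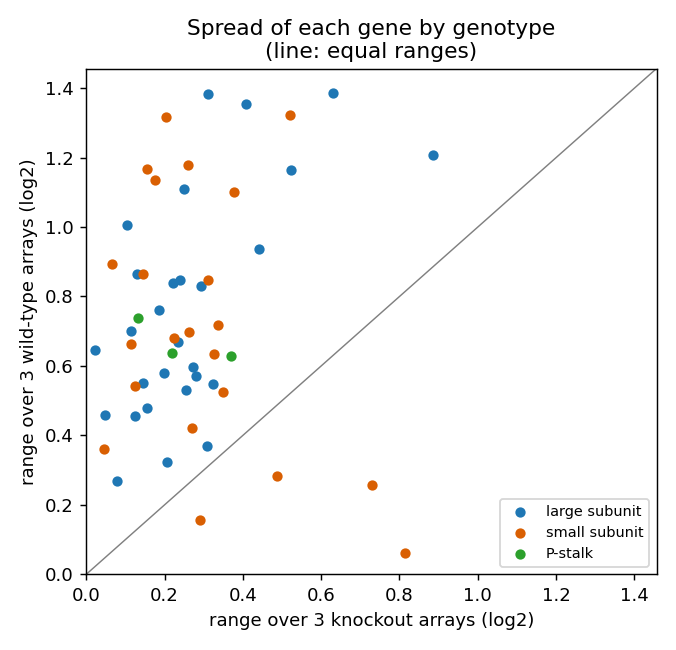
Range over the 3 wild-type arrays (vertical axis) against the range over the 3 knockout arrays (horizontal axis), both in log2 units, for the 53 genes coloured by subunit. The line marks equal ranges. Of the 53 genes, 49 lie above it.

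The comparison of knockout with wild type in each pair asked how ribosomal messages differ when Kdm4a is absent, and it had no replicate check within a pair. In the male pair 48 of 53 members were higher in the knockout, where 49.8% of all genes were, and their median difference was 0.37 against -0.001 for all genes. In the general pair 40 were lower, where 46.5% of all genes were, with a median of -0.20 against 0.02. In the female pair 19 were higher and 32 lower, where 48.8% of all genes were higher, with a median of -0.05 against -0.01. The 3 pairs therefore pointed in different directions.

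**Figure D3:**
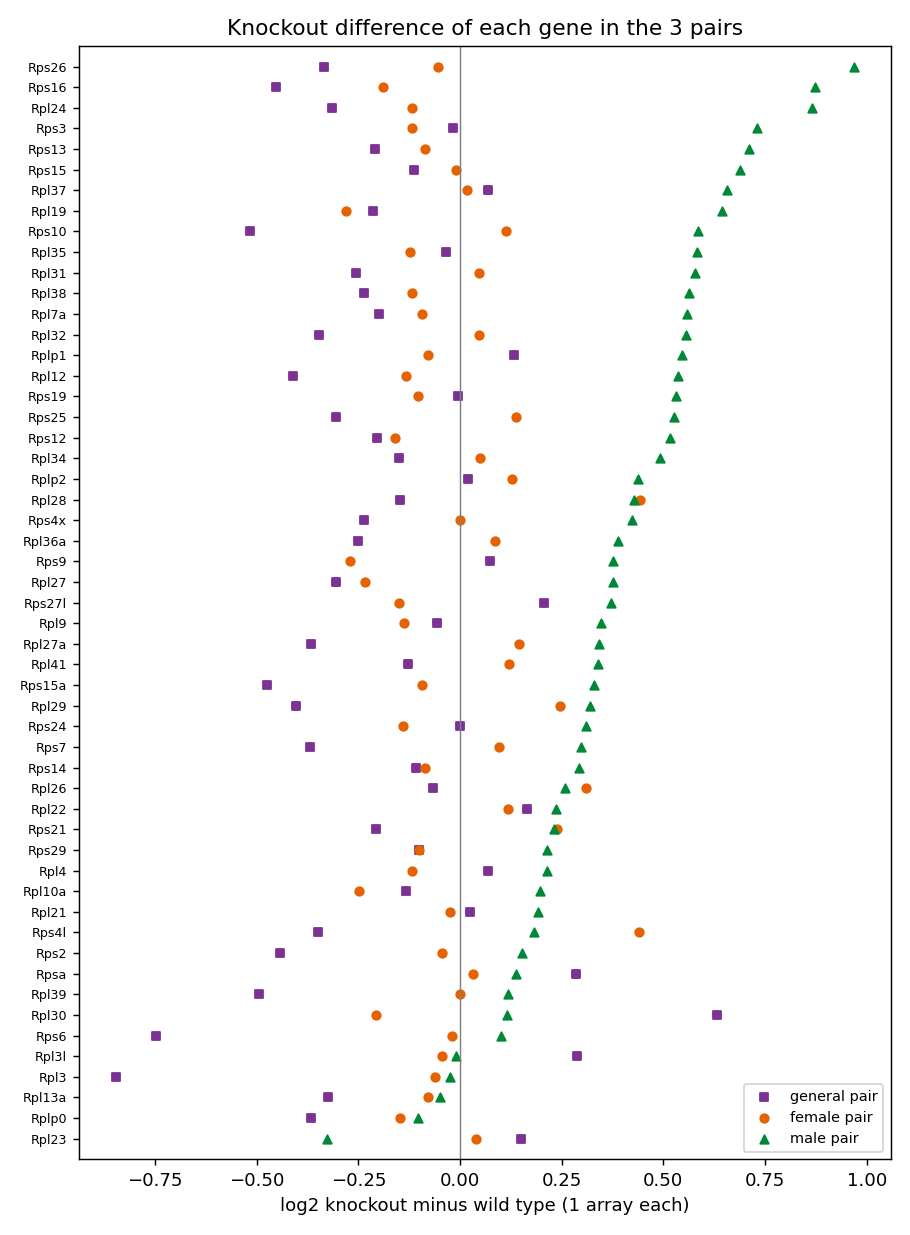
Log2 knockout minus wild type (horizontal axis) of each of the 53 genes (vertical axis, ordered by the male pair). Squares are the general, circles the female and triangles the male pair, each from 1 array per genotype. The triangles lie above 0 for 48 genes and the squares below 0 for 40.

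In the male pair 19 members were higher by at least 0.5, and none lower by as much, where 4.32% of all genes were higher by that amount. Rps26, at the exit of the message channel of the small subunit, had the widest difference. It read 7298, 6698 and 3252 in the general, female and male wild types and 5792, 6449 and 6362 in the knockouts. The differences were 0.97 for the males, -0.05 for the females and -0.33 for the general pair. The male wild type alone stood away from the other 5 values. Rps16 (0.87), Rpl24 (0.87) and Rps3 (0.73), a small-subunit protein at the message entry, followed in the male pair. Rps13 differed by 0.71 there and by -0.09 in the female pair, and Rpl19 by 0.64 and -0.28.

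Rps3 read 8195, 9201 and 4951 in the wild types and 8097, 8480 and 8209 in the knockouts. Its second probe gave 0.45 in the male pair against 0.73 on the first. Of the 5 members not higher in the male knockout, Rpl23, which also binds Mdm2, had the lowest difference (-0.33). It read 27586, 34282 and 35634 in the wild types and 30621, 35208 and 28429 in the knockouts on its brightest probe, but its other 2 kept probes differed by 0.28 and 0.18. Rplp0 (-0.10), Rpl13a (-0.05), Rpl3 (-0.02) and Rpl3l (-0.01) were the others.

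In the general pair 3 members were lower by at least 0.5, where 2.81% of all genes were. Rpl3, the core large-subunit protein that Rpl3l replaces in muscle, read 9939, 5521 and 6352 in the wild types and 5533, 5289 and 6243 in the knockouts (general, female, male). The general wild type stood alone above the other 5 arrays. Rps6, the substrate of the S6 kinases, had the same pattern, with 4085, 2885 and 2549 in the wild types and 2435, 2844 and 2734 in the knockouts. Rps10 differed by -0.52 and Rpl39, at the peptide exit tunnel, by -0.49. Rpl30 was the exception at 0.63, with 699, 1479 and 640 in the wild types and 1084, 1281 and 693 in the knockouts. It was bright in both female hearts, and its dimmer probe differed by -0.08 in the general pair.

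No member differed by 0.5 or more in the female pair, where 1.88% of all genes did in either direction. The highest differences there were those of Rpl28 (0.44), Rps4l (0.44), Rpl26 (0.31) and Rpl29 (0.25), and the lowest those of Rpl19 (-0.28), Rps9 (-0.27), Rpl10a (-0.25) and Rpl27 (-0.23). Rpl28, Rpl26, Rps4l, Rps21 and Rpl23 were the 5 members whose difference in the female pair exceeded that in the male pair, although Rpl28 was nearly equal in both (0.44 and 0.43). Rps21 differed by 0.24 and 0.23, and Rpl26 by 0.31 and 0.26. For Rpl29 a second probe gave 0.79 for the females and -0.22 for the males, while the brightest gave 0.25 and 0.32.

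Some members kept 1 direction in all 3 pairs. Rpl22, Rpl37, Rplp2 and Rpsa were higher in every knockout, 4 of 53 (7.55%) where 11.3% of all genes were. Rpl3, Rpl13a and Rplp0 were lower in every knockout, 3 of 53 (5.66%) where 10.5% of all genes were. Both shares lay a few genes below those of all genes, too little to be read as a trait of the members. For Rpl22, a large-subunit protein that in human cells also binds small RNAs of Epstein-Barr virus, the differences were 0.16, 0.12 and 0.24 in the general, female and male pair. In no member did the 3 knockouts lie wholly above or wholly below the 3 wild types, where 3.14% and 3.06% of all genes did.

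The P-stalk binds the elongation factors. Its acidic proteins Rplp1 and Rplp2 differed by 0.55 and 0.44 in the male pair, by -0.08 and 0.13 between the females and by 0.13 and 0.02 in the general pair. Rplp1 read 37078, 42400 and 25410 in the wild types and 40663, 40165 and 37078 in the knockouts, so the male wild type was again lowest. Rplp0, which anchors them, read 308, 266 and 199 in the wild types and 239, 240 and 185 in the knockouts, lower in each pair and lowest in both male hearts. This probe was dim, with background at 121 to 123.6, and the other Rplp0 probe was above background on 0 arrays. With background subtracted, its mean over 3 pairs went from -0.21 to -0.33. Rpsa, a small-subunit protein also known as the laminin receptor, read 109 to 147 and exceeded background on 2 arrays.

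Rpl32 and Rpl13a are, like Rplp0, in wide use as reference genes. Rpl32 read 12507, 8911 and 6231 in the wild types and 9842, 9201 and 9164 in the knockouts, a difference of -0.35, 0.05 and 0.56 in the general, female and male pair. Rpl13a read 741, 535 and 513 in the wild types and 592, 507 and 495 in the knockouts, a mean of -0.15 ± 0.15 (SD, n = 3 pairs).

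The muscle paralogue Rpl3l did not follow most other members. It read 18380, 26895 and 20981 in the wild types and 22444, 26076 and 20822 in the knockouts. The male wild type was not lowest, though close to the male knockout, and the general wild type was, the reverse of most members. This was not particular to Rpl3l. Rpl23 on its brightest probe also had the general wild type lowest (27586), and the male wild type highest (35634). On the other kept probes of Rpl23 the male wild type was lowest. Rps27l, a paralogue induced by p53, differed by 0.21, -0.15 and 0.37 in the general, female and male pair. Rps4x, the X-linked parent of the copy Rps4l, read 15685, 16946 and 11783 in the wild types and 13313, 16946 and 15811 in the knockouts. Rps4l itself read 112 to 197, near background. Many members have processed pseudogenes of near-identical sequence, so a probe can also catch another transcript.

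Of the members, 14 had several kept probes, and in 12 of them all kept probes had 1 sign in the male pair. The mean over 3 pairs differed most between probes for Rps2 (by 0.28), Rpl30 (0.26), Rpl28 (0.24), Rpl21 (0.20), Rpl27a (0.19) and Rps3 (0.13). Rps2 read -0.44 on its brighter and 0.23 on its other probe in the general pair, so its direction there depended on the probe. The 4 probes of Rpl27a differed by 0.34, 0.21, 0.23 and 0.02 in the male pair, the last from a probe near background. Members with signals close to the top of the scale at 50962, such as Rpl41 (28953 to 42400) and Rps29 (27777 to 35634), may hide differences.

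Over the 3 pairs the members' means were small, and 42 of 53 lay above 0, where 5784 of 11285 did among all genes. The highest means were those of Rpl37 (0.25 ± 0.36, SD, n = 3 pairs), Rpl28 (0.24 ± 0.34), Rplp1 (0.20 ± 0.32), Rps3 (0.20 ± 0.46), Rplp2 (0.19 ± 0.22) and Rps26 (0.19 ± 0.69). The lowest were those of Rpl3 (-0.31 ± 0.46), Rps6 (-0.22 ± 0.46), Rplp0 (-0.21 ± 0.14), Rpl13a (-0.15 ± 0.15), Rpl39 (-0.13 ± 0.33) and Rps2 (-0.11 ± 0.30). In 11 of these 12 the SD between pairs was at least as large as the mean. The median over 3 pairs was 0.07 for the members and 0.0036 for all genes. Without the male pair that of the members was -0.10. Without the male pair Rps26 became -0.19 and Rps3 -0.07, and without the general pair Rps6 became 0.04 and Rpl39 0.06.

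None of the members passed a test. In the limma fit over 3 pairs, blocked by pair, 0 of 53 had an adjusted p under 0.05 (0% of all genes), and at an unadjusted p under 0.05 there were 0 members against 2.68% of all genes. For the effect in the 2 heart-specific pairs the count was again 0 (0% of all genes), with 1 member, Rpl28, at an unadjusted p under 0.05 (4.47% of all genes). For the difference in knockout effect between the lines, the mean of the heart-specific pairs minus the general pair, 0 members passed where 0.0798% of all genes did, and 11 had an unadjusted p under 0.05 (20.8%, against 6.42% of all genes). These included Rpl3 (0.80 ± 0.22, SE; limma adjusted p = 0.524), Rps6 (0.79 ± 0.22; adjusted p = 0.553) and Rps10 (0.86 ± 0.27; adjusted p = 0.625), and in 10 of the 11 this difference of effects was above 0, which is no difference in level between the lines. In these differences the general side is 1 array per genotype, so their SEs and p-values hold no spread of the general arrays.

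The male hearts of the heart-specific line were also set against the female ones, with genotype as a term. Of the members 0 passed, where 0.0532% of all genes did. At an unadjusted limma p under 0.05 there were 15 (28.3%, against 11.2% of all genes), 14 of them lower in males. For the members' median deviations, the gap between the sexes lay mostly between the wild types (male -0.40, female 0.10). The knockouts were close (male -0.02, female 0.04). The general wild type, which also gave Eif2s3y signal, had the highest median (0.27). Whether these 14 differences go with sex or with the low male wild type was not tested. On its brighter probe Rpl30 was lowest in males relative to females (-1.05 ± 0.14, SE, limma adjusted p = 0.117). Both male hearts lay below both female hearts on that probe. Its dimmer probe read 195 and 162 in the female and 159 and 171 in the male hearts (wild type, then knockout). There the male knockout was above the female knockout. Rps15 (-0.73 ± 0.19; adjusted p = 0.278) and Rpl7a (-0.71 ± 0.18; adjusted p = 0.277) followed. The female and male knockout effects could not be tested against each other, since such a fit leaves no residual degrees of freedom.

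Other lists of the translation machinery and of abundant complexes were read on the same arrays. Proteasome core genes (11), mitochondrial ribosomal protein genes (73) and complex I genes (42) were also lowest in the male wild type, with medians of -0.38, -0.28 and -0.20, and higher in the male knockout in 10, 56 and 35 genes. In the general pair the proteasome core had a median of -0.08, against 0.02 for all genes. Of its 11 genes 5 were higher in that knockout, where 53.4% of all genes were, so the count was near the background. Mitochondrial ribosomal protein and complex I genes had the opposite sign to the members in this pair. Their medians were 0.09 and 0.12, with 52 and 32 genes higher. Ribosome biogenesis genes (18 of 22 kept) had medians of 0.13 (general) and -0.20 (male) in these wild types, and RNA polymerase I genes (8 of 10) 0.13 and -0.16, the directions of the members at smaller size. None of these genes passed the limma test over 3 pairs.

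Other TOP messages share the start sequence and the translational control. Of 16 listed, 15 were kept, and their median deviation in the male wild type was 0.13, unlike that of the members. In the male knockout 6 were higher, where 49.8% of all genes were. In the general pair 4 of 15 were higher in the knockout, where 53.4% of all genes were. Their median there was -0.16, close to the -0.20 of the members. In the female pair 12 were higher, where 48.8% of all genes were, with a median of 0.03 against -0.05 for the members. The poly(A)-binding protein gene Pabpc1 differed by -1.16, -0.01 and -0.32 in the general, female and male pair, the elongation factor gene Eef1g by -0.34, 0.06 and -0.22, and the initiation factor gene Eif3h by -0.30, -0.06 and -0.12. Cytosolic translation factors (14 of 18) had a median of 0.11 in the male wild type, and 6 of them, such as Eif3c (-0.29, -0.23 and -0.61), were lower in all 3 knockouts, where 10.5% of all genes were. None of the TOP or translation factor genes passed the limma test over 3 pairs. Among genes that control ribosomal protein messages (11 of 14 kept) the medians were -0.09, 0.02 and 0.04 in the 3 pairs, with Tsc2, an inhibitor of mTORC1 signalling, at -0.18, -0.16 and -0.44, Tia1, which binds TOP messages under stress, at 0.18, 0.47 and -0.11, and Eif4ebp1, the repressor of cap-dependent initiation, at -0.74, 0.17 and 0.07. Of ribosomal paralogues outside the rule, Rpl36al differed by 0.10, 0.09 and 0.65, Rpl7l1 by -0.54, -0.24 and -0.01 and Rpl22l1 by -0.37, 0.05 and 0.12.

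**Figure D4:**
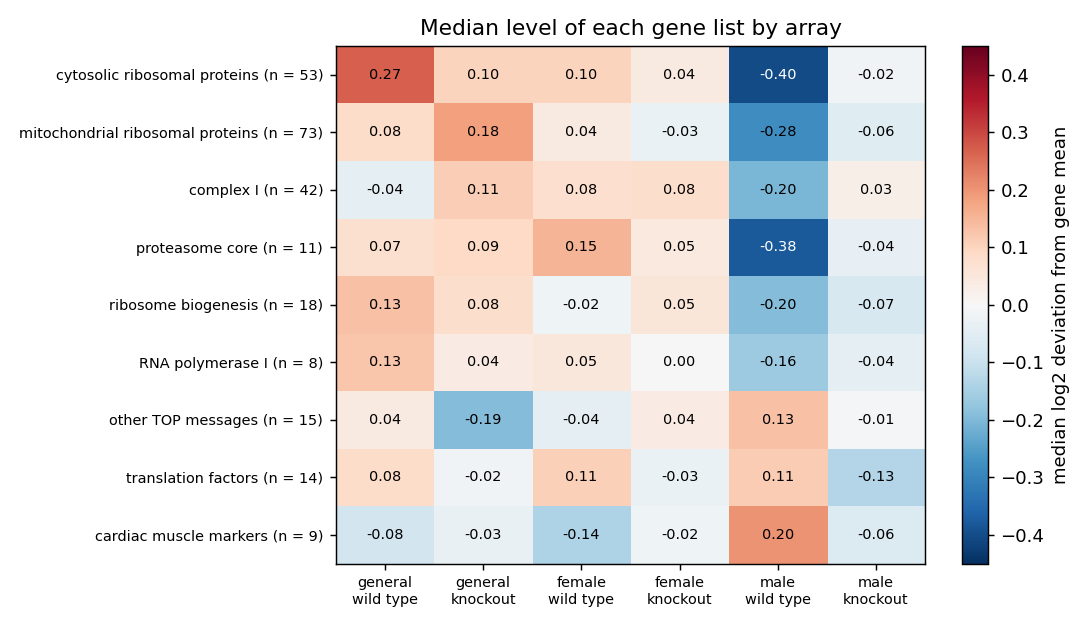
Median log2 deviation from the gene mean over 6 arrays (colour and printed value), by gene list (rows, with the number of genes) and array (columns). In the male wild type cytosolic ribosomal proteins (-0.40) and the proteasome core (-0.38) are lowest, while other TOP messages (0.13) and cardiac muscle markers (0.20) lie above 0.

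Markers of other cells also differed between the arrays at the ends. In the general wild type, neutrophil and platelet markers (8 of 10 above background) had a median deviation of 1.45 and a summed intensity of 5811, against 1586 and 1659 in the other wild types and 1792 to 2172 in the knockouts. Red cell markers deviated there by 1.60 (4 of 9, with Ahsp and Hbb-b1 among those not above background) and atrial markers by 0.84 (8 of 9; summed intensity 44847, against 15018 and 21500 in the other wild types and 21786 to 28407 in the knockouts). The atrial sum was mostly Nppa, at 39341 in the general wild type. Nppa, Myl7, Sln and Dkk3 were above both other wild types there. Pam (267) and Upk3b (120, near background) were below both. The red cell sum, mostly Hba-a1, was 39190 in the general wild type. It was 35503 and 42437 in the other wild types and 44186 to 48740 in the knockouts. Hba-a1 itself was lowest of the 6 arrays in the general wild type, at 31905 against 34104 to 44903, so the brightest red cell marker went the other way from the list's median. In the male wild type, fibroblast markers deviated by 0.31 (7 of 8; 26902, against 20247 and 21072 in the other wild types and 20927 to 21384 in the knockouts), endothelial markers by 0.20 (8 of 9; 10691, against 8841 and 9049, and 9200 to 12655) and cardiac muscle markers by 0.20 (9 of 10; 245215, against 222361 and 224355, and 220349 to 231798). Within these lists the markers were mixed in the male wild type. Of the fibroblast list, Col3a1, Col1a1 and Pdgfra were above both other wild types, and Tcf21 (222.5) and Col1a2 (198.6) below both. Of the endothelial list, Egfl7, Pecam1, Cdh5 and Tek were above both and Emcn (1809) was below both. Of the cardiac muscle list, Ryr2, Pln, Actc1 and Atp2a2 were above both and Csrp3 (26301.5) was below both. Of 12 lymphocyte markers 9, among them Cd3e and Ms4a1, were not above background. The part of these cells in the ribosomal protein levels was not tested.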

How the data were processed

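The authors deposited one linear intensity per probe and array and worked in GenomeStudio, per the submitters' processing notes. Its version and options: not given in the sources used here. Once sorted, the 6 arrays' values lay within 2.32% of each other, as after quantile normalization, and the lowest was 82.5, so background was left in, which compresses differences of dim genes. A second table, whose 6 signal columns could be tied to no sample, was not used.

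The measure was log2 of the deposited intensity. Background was the 95th percentile of 1526 olfactory, vomeronasal and trace amine receptor probes (121 to 123.6). Probes above it on at least 2 arrays were kept (17799 with 1 gene symbol), and the brightest represented a gene. Symbols came from the platform annotation (34885 probes with 1 symbol, 18 with several, 10378 with none), and all 59 member IDs matched GRCm38.p6.

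Tests used limma 3.58.1 in R 4.3.3 (lmFit, eBayes), with Benjamini-Hochberg adjustment over 11285 genes, and were tested on simulated data. Pairs come from the titles, and deviations correlated within each (r = 0.34, 0.33 and 0.35). P-values measure the spread between these arrays, which may be technical, and the small number of arrays limits precision. Array counts above background were 18307 to 19658 probes. Alternatives were background subtraction, averaged or single probes, other filters, centring, no pair block, paralogues left out and each pair left out.

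Members, lists and tests were chosen with earlier results of these data known. Named genes are stalk genes and Rpsa, paralogues ending in l with their parents, Rpl13a and Rpl32, the 6 highest and lowest means, members alike in all pairs, the 4 widest per direction in each pair, up to 6 widest gaps between male and female pair per direction, 6 with the most discordant probes, and up to 4 of each list. Rpl38, Rpl41, Rps29, Rps15 and Rpl7a were named after their values were seen.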

Additional observations from a re-analysis of the deposited data

Results flagged for a closer look

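The members' median difference had opposite signs in the male and female pairs of the heart-specific line, 0.37 and -0.05, a gap of 0.43 that was not tested. The general pair, whose hearts gave Eif2s3y signal as the males did, had a median of -0.20.

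In 15 of 53 members (28.3%) both heart-specific pairs moved opposite to the general pair, where 28.5% of all genes did, so the count itself is at the background. The difference, heart-specific mean minus general pair, was 0.86 for Rps10, 0.69 for Rpl29, 0.66 for Rps4l, 0.65 for Rpl32, 0.64 for Rps25, 0.61 for Rpl27a, 0.58 for Rpl28, 0.57 for Rpl31 and 0.57 for Rps7. It was 0.49 for Rpl36a, 0.44 for Rps21, 0.42 for Rpl34, 0.36 for Rpl41, 0.35 for Rpl26 and -0.32 for Rpl3l. None passed the limma test between lines.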

How the results depend on the processing

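The members' median kept its sign in each pair under all 7 alternatives that apply to a single pair, at -0.22 to -0.15 in the general, -0.06 to -0.04 in the female and 0.32 to 0.42 in the male pair. The median over 3 pairs ranged from -0.10 (without the male pair) to 0.21 (without the general pair). The male wild type was lowest in 74.6% to 84.9% of members. No member passed any of the 4 tests in any setting run, including the fit over 3 pairs without the pair block (0 members). Members whose knockout and wild-type values do not overlap numbered 0 over 3 pairs and 4 to 14 when 1 pair was left out, since 2 against 2 arrays separate more easily: 26.4%, 7.55% and 24.5% of members without the general, female and male pair, against 29.4%, 25.7% and 24.5% of all genes. Among the 12 named means over 3 pairs, leaving out 1 pair gave -0.0675 to 0.356 for Rps3, -0.194 to 0.457 for Rps26, -0.384 to 0.0404 for Rps6, -0.247 to 0.0592 for Rpl39 and -0.243 to 0.055 for Rps2. Averaging its probes turned Rps2 to 0.0293, since its 2 kept probes had means over 3 pairs of -0.11 and 0.17. The signal over background limits dim genes, and 3 members near background (Rps15a, Rps4l and Rpsa) were above it on fewer than 6 arrays.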
